A study of Arabidopsis thaliana with 12 samples.

Results

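The arrays compared here were the 6 of unstressed Arabidopsis thaliana seedlings among the 12 of the series: 3 of the line 46T, which overexpresses the transcription factor WRKY46, and 3 of its wild type (WT, Col-0). The comparison asked which transcripts differed between the lines before any water loss. Seedlings were 1 week old and untreated, and the titles of the arrays gave their groups. The other 6 arrays held 46T and WT seedlings dehydrated for 1 h, which also entered the fit and are described after the control seedlings. Each value was a log2 signal of an Affymetrix ATH1 array, which reads a gene through a set of short probes. Of 22746 probe sets, 14495 were tested, those whose signal exceeded the 40th percentile of the array on 3 or more of the 12 arrays. A call means an adjusted p below 0.05 in a limma fit of all 4 groups.

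WRKY proteins are plant transcription factors that bind W-box elements in promoters, and many of them act in defence and in abiotic stress. WRKY46 belongs to the same group of the family as WRKY53 and is known for roles in responses to pathogens, drought and salt and in stomatal movement. It has been linked to salicylic acid signalling, the hormone pathway of resistance to biotrophic pathogens. The sources used here do not give the promoter that drives WRKY46 in 46T. Since 46T is a single line, the effect of WRKY46 and any other difference of that line from Col-0 cannot be told apart. No probe set was named for WRKY46 in the annotation used here, so its level could not be identified. Tested probe sets without a name numbered 6359, and whether any of them reads WRKY46 was not determined.

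The WT control arrays were less alike than the 46T control arrays. Correlations of signal over the tested probe sets were 0.981 to 0.986 among the 46T control arrays and 0.913 to 0.962 among the WT control arrays. WT control replicate 2 correlated at 0.969 to 0.972 with the 46T control arrays, more than with either of the other WT control arrays. The first principal component of the 6 arrays held 62.0% of their variance, with the 46T control arrays at -23.2 to -21.5 on it, WT control replicate 2 beside them at -20.4, WT control replicate 3 at 10.8 and WT control replicate 1 at 76.1. The poly-A labelling controls, bacterial RNAs added before labelling, ran along with this. Their mean log2 level over 12 probe sets was 7.76 to 7.94 on the 46T control arrays, against 8.85, 7.78 and 8.55 on WT control replicates 1, 2 and 3. Median signals were 7.35 to 7.42 on the 46T control arrays and 7.0, 7.43 and 7.22 on those WT arrays. None of the 4 tested photosynthetic genes that mark seedling shoot tissue was called, and all 4 differences were below 0 (median -0.12). The Rubisco activase gene RCA read 14.83 to 14.91 in 46T and 14.98 to 15.04 in WT (-0.14 ± 0.11). For RCA every 46T array thus lay slightly below every WT array.

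**Figure D1:**
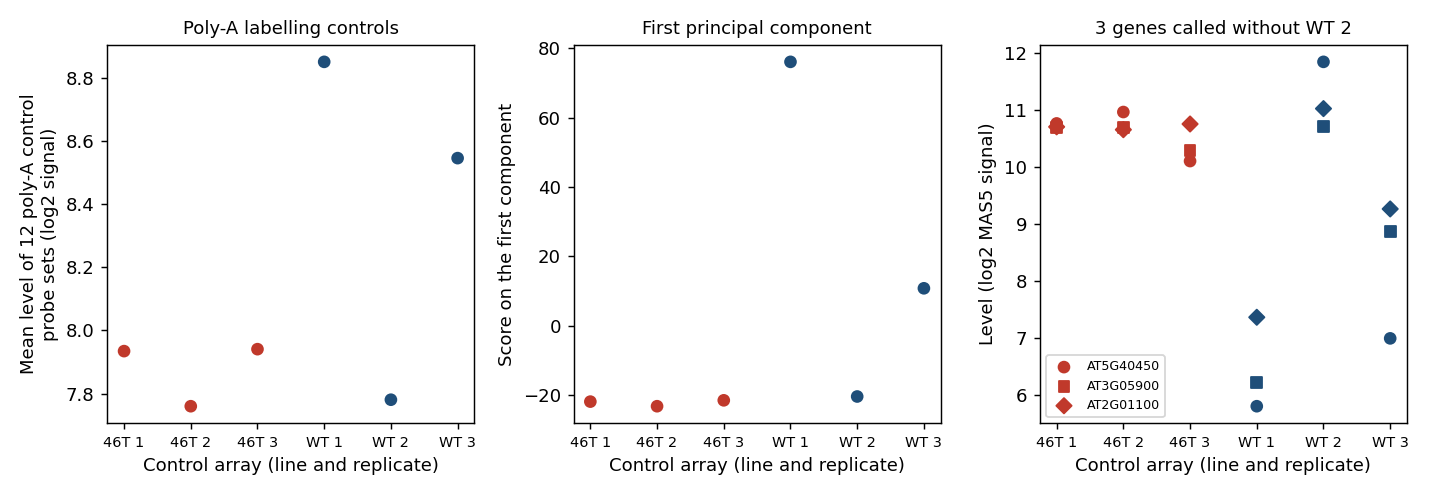
Measures of the 6 control arrays, 46T in red and WT in blue, with 1 point per array: the mean log2 level of the poly-A labelling controls (left), the score on the first principal component (middle) and the log2 signals of 3 genes called when WT control replicate 2 was left out (right). On each panel WT control replicate 2 sits nearest to the 46T arrays among the WT arrays, and WT control replicate 1 lies farthest from them.

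Between the lines, 52 probe sets were called, which is 0.359% of those tested. Of these, 38 were higher in 46T (0.262%) and 14 were lower (0.0966%). The split depends on scaling: it was 38 higher and 33 lower with quantile normalization, and 38 higher and 47 lower with arrays centred on their medians. All 52 had no overlap between the lines, against 8.85% of tested probe sets with no overlap upward and 6.13% downward. In whole seedlings, a change in the share of a cell type and a change in its RNA content cannot be told apart. At least 2-fold differences were seen in 36 of the 38 and in 11 of the 14. The annotation names 1 gene for 21 of the higher and for 6 of the lower probe sets. The higher ones were mostly genes of low signal in WT: their median level was 8.27 in 46T and 6.41 in WT (log2), against medians of 8.71 in 46T and 8.57 in WT over all tested probe sets. On every WT control array 11 of the 38 lay below the 40th percentile, which was 6.13 to 6.6 depending on the array, and 1 of them entered the test through the 46T control arrays alone. AT3G48650, AT2G15042, AT1G15790 and the unnamed 257763_s_at lay below that range on every WT array, control and dehydrated. They thus passed the filter only through 46T arrays.

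**Figure D2:**
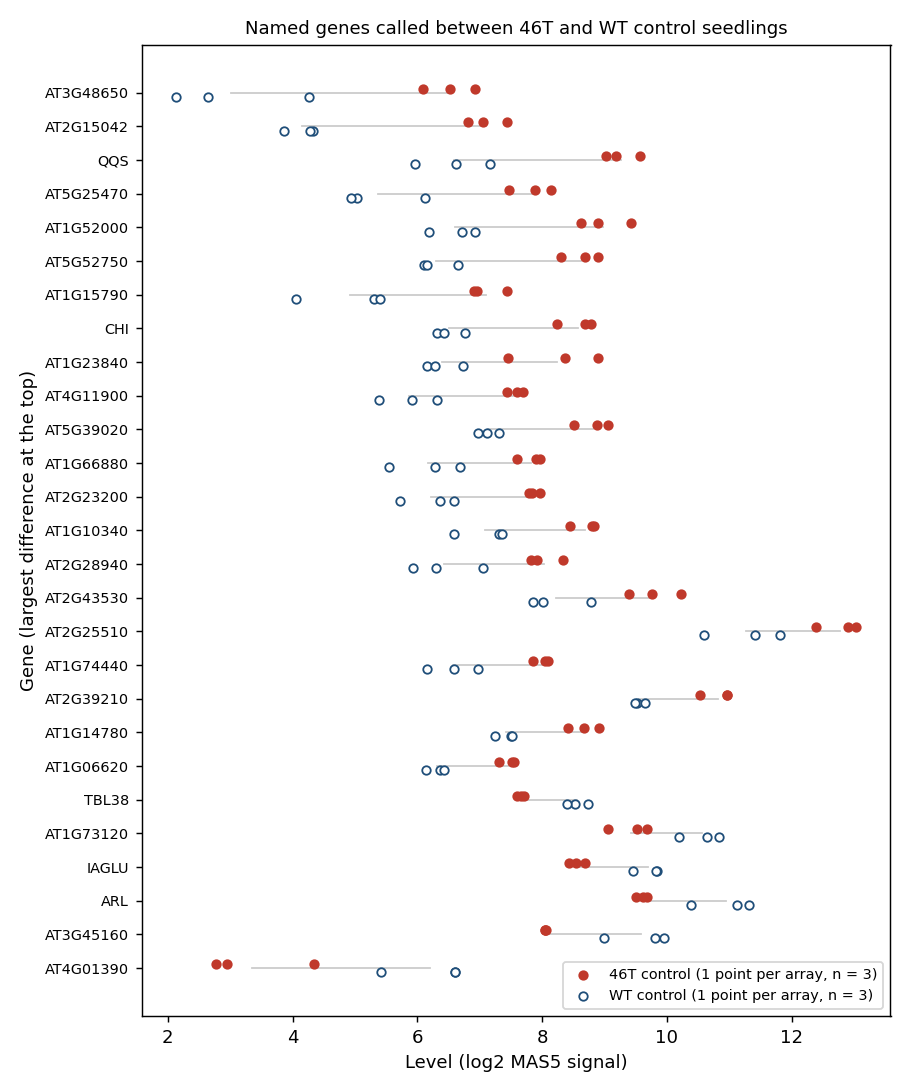
Log2 signals of the 27 called probe sets that name 1 gene, on each of the 3 46T control arrays (filled) and the 3 WT control arrays (open), with a grey line between the group means and the largest rise in 46T at the top. No gene has overlapping values between the lines, and 21 are higher and 6 lower in 46T.

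The largest difference of all belonged to probe set 263783_at, for which the annotation used here gives no gene, so the gene it reads was not determined. It read 12.10, 12.59 and 12.52 in 46T and 3.97, 6.0 and 5.35 in WT. The lines differed by 7.30 ± 0.39 on the log2 scale (± gives the SE here and below), or 158-fold (limma adjusted p = 4.0e-07). All 3 WT values lay below the 40th percentile, so the size is uncertain: with 32 signal units added to each value before taking logarithms the difference was 6.30. Its level in 46T was as high after dehydration, at 12.26 to 12.77, while in dehydrated WT seedlings it read 7.64 to 8.60. Another unnamed probe set, 245265_at, was higher in 46T by 4.1 ± 0.46, with 9.09 to 9.64 in 46T and 4.48 to 6.45 in WT, or 3.22 with that addition.

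Among named genes the orphan gene QQS, known for an effect on the sharing of carbon between starch and protein, was among the clearest. It read 9.19, 9.02 and 9.57 in 46T and 6.62, 7.16 and 5.96 in WT, so that the lowest 46T array lay well above the highest WT array. The log2 difference was 2.68 ± 0.28 (6.42-fold; limma adjusted p = 9.9e-04). Leaving out WT control replicate 1 changed it to 2.70, and 2.97 when replicate 2 was left out in its place. The starch genes tested beside it did not pass: DPE1, a disproportionating enzyme, differed by 0.39 ± 0.34 and SBE2.2, a starch branching enzyme, by 0.23 ± 0.19.

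Of the 21 named genes higher in 46T, 5 are known as genes for protein kinases. They were put together after the calls were seen, with no fixed list, so their number says nothing of kinase genes as a class. AT5G39020, which encodes a receptor-like kinase with a malectin-like outer domain, read 8.51, 9.05 and 8.88 in 46T and 7.11, 6.97 and 7.31 in WT. Its difference was 1.68 ± 0.18 (3.21-fold; limma adjusted p = 9.9e-04), and 1.67 and 1.60 without WT control replicates 1 and 2. AT4G11900, an S-locus lectin-type receptor kinase, read 7.44, 7.69 and 7.60 in 46T and 5.38, 6.32 and 5.91 in WT (difference 1.71 ± 0.26). AT1G66880 (1.66 ± 0.27), AT2G23200 (1.64 ± 0.26) and AT2G28940 (1.59 ± 0.29) also encode protein kinases. All 5 kinase genes had separate ranges, every 46T array lying above every WT array, as had every other call higher in 46T. The calls of AT4G11900 and AT1G66880 were lost without 46T control replicate 2 or 3, and that of AT2G23200 without any 1 of the 46T control arrays. AT2G28940 was called in 1 of 6 leave-one-out fits, the one without WT control replicate 2; without WT control replicate 1 its difference was 1.35 (limma adjusted p = 0.059).

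A further 4 of the higher genes are described together for their products, a grouping also made after the calls were seen. The lists of defence genes described further on had no call, but few of their entries were tested. CHI, a chitinase gene, read 8.24, 8.69 and 8.78 in 46T and 6.32, 6.77 and 6.42 in WT, a difference of 2.07 ± 0.31 (4.2-fold; limma adjusted p = 0.0081). AT2G43530, which encodes a defensin-like peptide, read 9.40, 9.77 and 10.22 in 46T and 8.79, 7.86 and 8.01 in WT (1.58 ± 0.31; limma adjusted p = 0.048). AT1G14780, a gene for a protein with a MAC/perforin domain, read 8.41, 8.92 and 8.67 in 46T and 7.25, 7.50 and 7.52 in WT (1.24 ± 0.24). AT1G10340, an ankyrin repeat gene, read 8.44, 8.84 and 8.80 in 46T and 6.59, 7.31 and 7.35 in WT (1.61 ± 0.23). These 4 genes, like every other call higher in 46T, stood at higher levels on each 46T array than on any WT array. CHI and AT1G10340 lost their calls without 46T control replicate 2 or 3, and AT2G43530 and AT1G14780 without any 1 of the 46T control arrays. Leaving out WT control replicate 3 also ended the calls of AT2G43530 and AT1G14780, and leaving out WT control replicate 1 that of AT1G14780 (1.15; limma adjusted p = 0.078).

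AT1G52000, a jacalin-related lectin gene, read 8.89, 8.62 and 9.43 in 46T and 6.71, 6.19 and 6.93 in WT, a difference of 2.37 ± 0.39 (5.18-fold). AT5G52750, which encodes a protein with a heavy-metal-associated domain, read 8.30, 8.90 and 8.68 in 46T and 6.10, 6.16 and 6.65 in WT (2.32 ± 0.29; limma adjusted p = 0.0020). The gene next to it, AT5G52760, differed by 2.50 ± 0.85 and was not called; it read 4.99, 5.80 and 5.54 in 46T and 3.92, 0.05 and 4.87 in WT, so that WT control replicate 2 set much of that mean. AT2G39210, a transporter-like gene of the nodulin-like family, had a smaller but tight difference of 1.27 ± 0.14, from 10.53, 10.96 and 10.96 in 46T and 9.52, 9.49 and 9.65 in WT. AT5G25470, of the B3 DNA-binding family, read 7.47, 7.88 and 8.15 in 46T and 6.13, 5.03 and 4.94 in WT (2.47 ± 0.33, or 1.81 with the added 32 units). The call of AT1G52000 was lost without any 1 of the 46T control arrays, and the other 3 called genes of this paragraph were called in all 6 leave-one-out fits.

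A pair of genes near the detection limit in WT had large differences of uncertain size. AT3G48650 read 6.09, 6.92 and 6.52 in 46T and 2.13, 4.27 and 2.64 in WT, a difference of 3.5 ± 0.48 that became 1.58 with the added 32 units. AT2G15042, a leucine-rich repeat gene, read 6.82, 7.43 and 7.05 in 46T and 4.32, 4.28 and 3.87 in WT, 2.94 ± 0.46 or 1.76 with that addition. In both genes, as in every other call higher in 46T, every 46T array was above every WT array. AT3G48640, next to AT3G48650, differed by 2.11 ± 0.88 and was not called, at 6.25 to 6.59 in 46T and 3.95 to 4.74 in WT. The call of AT3G48650 ended without 46T control replicate 2, and that of AT2G15042 without either 46T control replicate 2 or 3.

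The other named genes higher in 46T were AT1G15790 (2.18 ± 0.42, or 1.41 with that addition), AT1G23840 (1.85 ± 0.33), AT2G25510 (1.5 ± 0.25), AT1G74440 (1.44 ± 0.21) and AT1G06620, a gene of the 2-oxoglutarate-dependent dioxygenase family (1.14 ± 0.21). AT2G25510 was the most abundant called gene, at 12.39 to 13.04 in 46T and 10.60 to 11.82 in WT. AT1G15790 and AT1G06620 were not called without WT control replicate 1 (1.74 and 1.06) or without any 1 of the 46T control arrays. AT1G23840, AT2G25510 and AT1G74440 were not called without 46T control replicate 2 or 3, and AT1G23840 also not without WT control replicate 3.

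Of the 6 named genes lower in 46T, a pair act on growth and auxin. ARL, which promotes cell expansion in organ growth, read 9.50, 9.61 and 9.68 in 46T and 11.13, 11.32 and 10.39 in WT, a difference of -1.35 ± 0.26 (limma adjusted p = 0.045). IAGLU, a glucosyltransferase that conjugates the auxin indole-3-acetic acid, read 8.55, 8.43 and 8.69 in 46T and 9.84, 9.82 and 9.45 in WT (-1.15 ± 0.22). The ranges of both genes were separate, as in every call, and for ARL the nearest WT array was replicate 3. TBL38, of the family that acetylates cell wall polysaccharides, read 7.71, 7.59 and 7.66 in 46T and 8.52, 8.74 and 8.4 in WT (-0.90 ± 0.15). AT3G45160 fell by 1.54 ± 0.26 and was nearly constant in 46T, at 8.04 to 8.06, against 9.00 to 9.95 in WT. AT1G73120 fell by 1.14 ± 0.20, and AT4G01390 by 2.85 ± 0.50, or -1.32 with the added 32 units, from 2.77 to 4.35 in 46T and 5.41 to 6.61 in WT.

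No fall was called in all 6 leave-one-out fits. TBL38, AT1G73120, AT3G45160, IAGLU and ARL lost their calls without any 1 of the 46T control arrays, and AT4G01390 without 46T control replicate 1 or 2. Without WT control replicate 1 the differences of ARL, IAGLU and AT4G01390 were -1.26, -1.08 and -2.65, and none of these 3 was called. All 6 were called without WT control replicate 2, at -0.80 to -2.66.

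Lists of genes chosen for the theme of the study held 40 tested probe sets, reference genes apart. QQS rose, ARL and IAGLU fell, and no other member passed; IAGLU and ARL entered their list with their results already known. In the auxin and growth list, the 2 falls were among 8 tested genes, and all 8 differences were below 0 (median -0.32, against 0.07 over all tested probe sets). The other 6 included the auxin-conjugating enzymes GH3.3 (-0.34 ± 0.23) and WES1 (-0.18 ± 0.18) and the auxin response repressor IAA29 (-0.61 ± 0.49). The median of this list was -0.43 when WT control replicate 1 was left out, and -0.32 when replicate 2 was. In dehydrated seedlings the median of the list was 0.06, with GH3.3 at 0.31 and IAA29 at 0.57, neither called.

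None of the 13 tested cell wall loosening genes passed, with 10 differences below 0 and a median of -0.40. EXLB1, an expansin-like gene, was nearest to the threshold at 5.86, 5.85 and 5.82 in 46T and 7.75, 6.67 and 7.25 in WT (-1.38 ± 0.30; limma adjusted p = 0.074). The 7 tested tubulin genes had a median of -0.30, with 6 below 0, and the 6 genes of the xyloglucan endotransglucosylase family a median of -0.31, with all 6 below 0; none was called. With WT control replicate 2 left out, 3 of 13 expansin-family genes and 2 of 7 tubulin genes were called. All of these were lower in 46T, where 1.99% of all tested probe sets were called lower. In that fit 3 of 17 cytochrome P450 genes were also called, in both directions, against 11.3% of all tested probe sets. Of 10 U-box and RING ligase genes, 3 were called there, all higher, against 9.33%.

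In the salicylic acid defence list of 33 entries, 2 genes were tested and neither passed. The jasmonate and ethylene list had 27 entries, the WRKY list 30 and the dehydration and abscisic acid list 28. Most entries of these lists were thus not tested, and nothing is read for the pathways as a whole. The lipase-like defence regulator SAG101 differed by 0.69 ± 0.25 and the glutaredoxin GRX480 by 1.01 ± 0.33. In both genes every 46T array was above every WT array, a pattern seen upward in 8.85% of tested probe sets. The 3 tested genes of the jasmonate and ethylene list were plant defensins with a wide scatter in both lines: PDF1.2 read 6.14, 8.51 and 8.66 in 46T and 7.32, 5.07 and 6.06 in WT (1.62 ± 0.87), and PDF1.4 differed by 1.75 ± 0.64 and PDF1.2b by 2.25 ± 1.08. None of the 3 tested WRKY genes passed. WRKY53 was at 5.21 to 5.67 in 46T and 4.89 to 6.05 in WT. These values lay below the 40th percentile of every array, so a difference at this level could be missed. WRKY6 and WRKY22 differed by 0.54 ± 0.27 and -0.38 ± 0.20. The dehydration and abscisic acid list had 3 tested members, and none passed. These were LEA4-5 (-0.15 ± 0.59) and the dehydrin genes LTI30 (-0.26 ± 0.27) and COR47 (-0.26 ± 0.23). LEA4-5 too lay below the 40th percentile on all control arrays.

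Marker lists of organs and cell types gave no call. The 4 photosynthetic tissue genes had a median of -0.12, the root gene EXPA18 differed by -0.02 ± 0.30, and the guard cell gene FMA, also called FAMA, by 0.24 ± 0.31. Their tested members were few, and no seed or xylem marker was tested. The 67 plastid-encoded genes had a median of 0.05 with no call, while without WT control replicate 2 the median was -0.07, with 5 called higher and 5 lower in 46T, where 9.33% and 1.99% of all tested probe sets were. The 3 reference genes GAPC2, TUB5 and PEX4 differed by -0.26 ± 0.13, -0.21 ± 0.14 and -0.24 ± 0.17, and none was called. There were 19 gene families with tested members, defined by shared names alone. Of these, only the trichome birefringence-like family had a call in the fit as reported, 1 of its 16 members, TBL38. That family was chosen after its call was seen. The called genes AT1G52000, AT1G10340, AT2G43530 and IAGLU fell outside the jacalin-related lectin, ankyrin repeat, defensin-like and glycosyltransferase families by name. A family without a call here may thus have called members. Medians of the larger families were 0.26 for 17 cytochrome P450 genes, -0.08 for 30 UDP-glycosyltransferase genes, 0.06 for 9 glutathione transferase genes, 0.03 for 10 U-box and RING ligase genes and -0.39 for 8 calcium-binding EF-hand genes.

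The lines were also compared in the dehydrated seedlings. Those arrays did not enter the control difference itself, but they entered the filter and the estimate of spread behind the 52 calls, so the calls are not independent of them. All 38 probe sets higher in 46T control seedlings had a difference above 0 there too, against 54.9% of all tested probe sets, and 36 of the 38 had no overlap between the lines, against 14.6%. Of the 38, 14 were also called in dehydrated seedlings, where 0.152% of all probe sets were called higher and none lower. QQS read 8.91, 9.10 and 8.62 in dehydrated 46T and 5.76, 5.77 and 6.24 in dehydrated WT (2.95 ± 0.28; limma adjusted p = 1.5e-04). AT5G25470 differed by 2.47 ± 0.33, equal to its difference in control seedlings, and AT1G10340 by 1.84 ± 0.23. AT3G48650 (4.38 ± 0.48), AT2G15042 (4.56 ± 0.46) and AT1G74440 (1.63 ± 0.21) were the other named genes called in both conditions. AT3G48650 and AT2G15042 had passed the filter only through 46T arrays. AT5G39020 (0.96 ± 0.18), AT5G52750 (1.56 ± 0.29) and AT1G66880 (1.42 ± 0.27) just missed the threshold, each with a limma adjusted p of 0.052.

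The lower genes had smaller differences in dehydrated seedlings. They were chosen for large differences on the control arrays, which by itself favours smaller ones on other arrays. Nothing is therefore read from the smaller size. Of the 14, 13 had a difference below 0 in dehydrated seedlings, but the median was -0.28, against -1.29 in control seedlings, 6 had no overlap between the lines, against 8.75% of all probe sets, and none was called in limma, while 5 had an unadjusted p below 0.05, against 1398 of all tested probe sets in either direction. TBL38 read 8.67, 8.61 and 8.49 in dehydrated 46T and 8.77, 8.67 and 8.76 in dehydrated WT (-0.14 ± 0.15). In 46T, TBL38 rose with dehydration by 0.94 ± 0.15, whereas its change in WT was 0.18. Of the 14 probe sets, 7 were called higher after dehydration in 46T, against 6.69% of all tested probe sets, and none in WT, against 7.29%; none was called lower after dehydration in 46T, against 3.5%, and 1 in WT, against 4.3%. IAGLU had a difference close to that in control seedlings, at -1.02 ± 0.22 in dehydrated seedlings, though it was not called there (limma adjusted p = 0.10). These dehydration changes share the control arrays with the line difference, so they are not separate evidence.

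**Figure D3:**
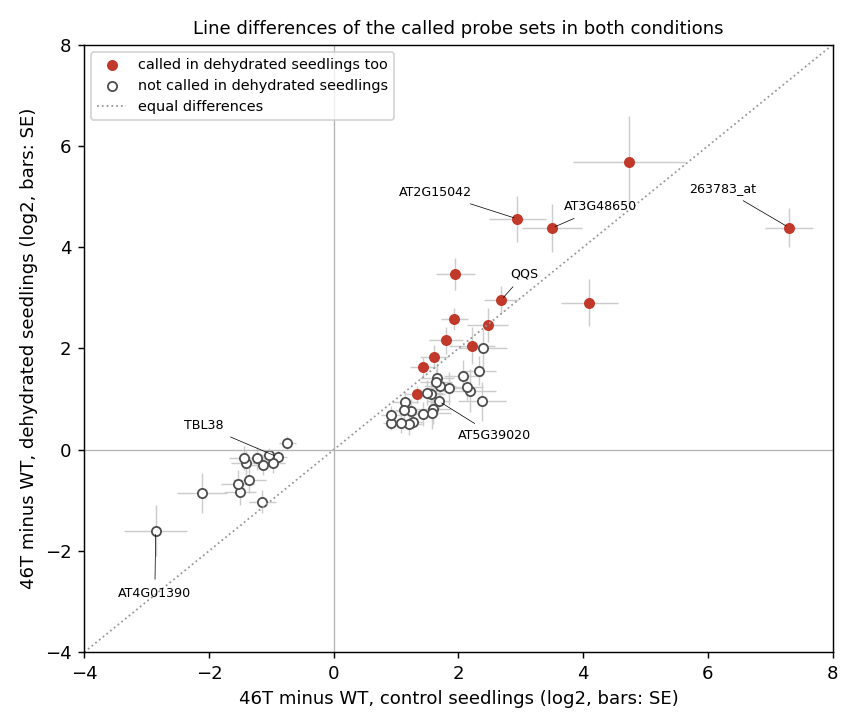
Log2 differences between 46T and WT (bars: SE) of the 52 called probe sets in control seedlings (horizontal axis) and dehydrated seedlings (vertical axis), with those also called in dehydrated seedlings filled and the dotted line marking equal differences. All 38 probe sets higher in 46T control seedlings lie above 0 on both axes, and those lower in control seedlings lie nearer to 0 on the vertical axis, 1 of them just above it.

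Of the 38, 10 were called higher after dehydration in 46T, against 6.69% of all tested probe sets, and 15 in WT, against 7.29%; 1 was called lower in 46T, against 3.5%. The 38 were chosen with the control arrays that these changes share, low WT values among them, so nothing is read from these counts. Among the named genes AT3G48650 had the largest rise in 46T (3.06 ± 0.48) and AT5G52750 the largest in WT (3.46 ± 0.29). For AT5G52750 the level was 11.48, 11.46 and 11.01 in dehydrated 46T against 8.30, 8.90 and 8.68 in 46T controls, and 10.51, 9.26 and 9.51 in dehydrated WT against 6.10, 6.16 and 6.65 in WT controls. Its level in unstressed 46T thus lay between those of unstressed and dehydrated WT. AT2G39210 was near its level in dehydrated WT, with 10.53 to 10.96 in unstressed 46T, 10.67 to 10.80 in dehydrated WT and 9.49 to 9.65 in unstressed WT. CHI was a contrast: it changed by -0.52 with dehydration in 46T and by 0.10 in WT. A test of the dependence of the line difference on dehydration called none of the 52 probe sets, nor any other probe set (limma, smallest adjusted p 1.00), with 291 unadjusted p-values below 0.05 among all 14495. Of the 52, 21 were below 0.05, but they were chosen by the control difference, which is part of this term, so nothing is read from that number. With the poly-A level as a term, a setting chosen after seeing the data, 263783_at was called, with a smaller line difference in dehydrated seedlings (interaction -2.93 ± 0.36 on the log2 scale; limma adjusted p = 0.013), and it was also the only probe set called with array weights.

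The count of calls depended strongly on which WT control arrays were used. Without WT control replicate 1 it was 53, with 39 higher and 14 lower in 46T (0.366% of the tested probe sets), and 38 of these were among the 52. Without WT control replicate 2 it was 1640 (11.3%), with 1352 higher (9.33%) and 288 lower (1.99%), and all 52 were among them. Leaving out WT control replicate 3 gave 56, 38 of them shared. Leaving out 46T control replicates 1, 2 and 3 gave 28, 13 and 14. In all 6 of these fits and in a fit of the 6 control arrays alone, 6 probe sets were called: QQS, AT5G39020, AT5G52750, 263783_at, 245265_at and 1 more unnamed probe set, 253997_at.

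**Figure D4:**
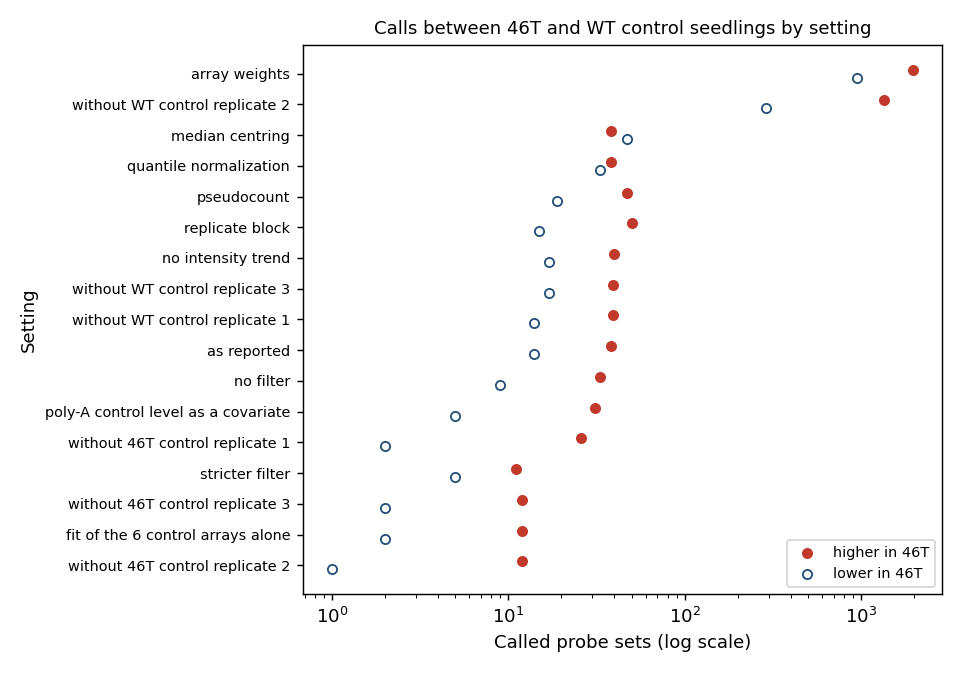
Number of probe sets called higher (filled) and lower (open) in 46T control seedlings, on a log scale, as reported and under 16 other settings. Counts run from 13 in all without 46T control replicate 2 to 2926 with array weights, and the fits without WT control replicate 2 and with array weights stand apart from the rest.

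Many probe sets called without WT control replicate 2 had values on that array near those of 46T. Of the 1352 higher, 1234 (91.3%) had that array nearer to the 46T mean than to the mean of the other WT arrays. So did 193 of the 288 lower ones (67.0%). That array lay near the 46T arrays in general, and calls gained by leaving it out favour such values. No share over all tested probe sets was computed, so nothing is read from these counts. AT5G40450 read 10.76, 10.96 and 10.10 in 46T and 5.80, 11.84 and 6.99 in WT, so that WT control replicate 2 was above every 46T array. Its difference was 4.21 without that array and 2.40 with it (limma adjusted p = 0.35). AT3G05900 read 10.69, 10.69 and 10.28 in 46T and 6.22, 10.70 and 8.86 in WT, and AT2G01100 read 10.70, 10.65 and 10.75 in 46T and 7.36, 11.02 and 9.26 in WT. In these 3 genes the order of the WT arrays was that of their poly-A control levels turned round, with replicate 1 lowest and replicate 2 highest. AT4G08310, AT5G16030 and AT5G55100 had the same order and differences of 3.11, 2.51 and 2.48 without WT control replicate 2. With all arrays and the poly-A level of each array as a term, a setting chosen after seeing the data, these 6 genes differed by -0.24 (AT5G40450) to 0.37 (AT5G16030), against 1.49 (AT2G01100) to 2.40 (AT5G40450) without the term. The 6 genes were picked as the largest rises gained by leaving out WT control replicate 2. That choice favours values near 46T on that array, whose poly-A level was also near 46T. Nothing is therefore read from the order of the arrays or from these smaller differences.

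Ranked next were named genes called without WT control replicate 2 but not with all arrays. Kept were those with no overlap between the arrays used and at least 1 line mean no lower than the median tested value. The 6 with the largest falls were AT4G22490 (-1.76), THI2.2 (-1.41), AT2G04795 (-1.37), AT5G01870 (-1.31), AT5G22580 (-1.31) and AT5G61660 (-1.29). AT5G01870 and AT5G22580 were also called with median centring and with quantile normalization of all arrays. THI2.2 is a gene for a thionin, an antimicrobial peptide. THI2.2 read 11.27, 11.14 and 10.75 in 46T and 12.75, 11.31 and 12.18 in WT, with WT control replicate 2 close to 46T. AT5G22580 was different, at 7.95 to 7.96 in 46T and 9.44, 9.66 and 9.09 in WT, and narrowly missed the call with all arrays (-1.44; limma adjusted p = 0.074). Over the dehydrated arrays, 1318 of the 1352 higher probe sets differed in the same direction, against 54.9% of all tested probe sets above 0. Of the 288 lower ones, 255 did so, against 6544 of all 14495 below 0. Medians were 0.45 and -0.29. Called there were 19 and 0 of them, against 0.152% of all tested probe sets called higher and none lower. The poly-A controls differed between the dehydrated lines as well, at 7.71 to 7.92 in 46T and 8.10 to 8.62 in WT.

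With WT control replicate 1 left out, 8 named genes were called that were not called with all arrays. Of these, AT3G22060 was also called without WT control replicate 2. AT3G22060 (1.17; 9.21 to 9.56 in 46T and 7.95 to 8.78 in WT with replicate 1 included) and AT3G56360 (1.06) met the rule for being named. Of the 27 named calls, 7 were lost without that array: AT1G15790, AT2G28940, AT1G14780, AT1G06620, IAGLU, ARL and AT4G01390. With the poly-A term in the fit, 36 probe sets were called, 31 higher and 5 lower, of which 26 were among the 52. QQS (2.45), AT5G39020 (1.82), AT5G52750 (2.58), AT2G39210 (1.31) and TBL38 (-0.97) were called in that fit. ARL (-1.32) and IAGLU (-0.99) were not called there, with differences close to those without the term (-1.35 and -1.15). Apart from WT control replicate 2, every WT array had a higher poly-A level than any 46T array. Labelling and line thus cannot be fully told apart with this term. The part of labelling in these calls, and in those made without WT control replicate 2, was not tested.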

How the data were processed

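Values were read from the deposited series table, 1 column per array. They are log2 signals made by the authors with MAS5, per the submitters' processing notes, which give no version here. With 2% of the values trimmed at either end, the linear signals averaged 500.05 to 500.06 on the arrays, so they were taken as normalized. The 64 control probe sets were left out. A fit of 4 group means was made in R 4.3.3 with limma 3.58.1 (lmFit, eBayes with an intensity trend), with two-sided p-values adjusted by the Benjamini-Hochberg method over 14495 probe sets and tested on simulated data. The labels call the arrays biological replicates but give no source beyond that, and their number limits the precision. Same-numbered arrays of the lines did not deviate together (correlations of -0.12 to 0.02), so numbers were not treated as pairs. Probe sets were named from the platform annotation, updated through RefSeq TAIR10.1: 7834 tested ones name 1 gene, 302 several and 6359 none. Named were all calls with 1 gene and members of gene lists and families. Also named were up to 6 rises and 6 falls called without WT control replicate 1 or 2 but not with all arrays. These had no overlap over the arrays used and 1 mean no lower than the median tested value. Unnamed probe sets, neighbouring genes and further list members were named after their values were seen, and family name patterns were corrected after false matches. The comparison and lists were chosen with earlier results of these data known. Alternatives are given in the closing section.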

Additional observations from a re-analysis of the deposited data

How the results depend on the processing

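The 3 arrays a group, low signals and the spread of the WT control arrays limit these results. Beside the 52 calls as reported, 16 other settings were tried. The count was 14 (12 higher, 2 lower) in a fit of the 6 control arrays alone, 16 (11 and 5) with probe sets above the 40th percentile on all arrays, which tests fewer probe sets, 85 (38 and 47) with median centring and 2926 (1981 and 945) with array weights, whose estimation did not converge. Leaving out 1 control array gave 13 to 1640. Quantile normalization gave 71, with 38 higher and 33 lower, so the excess of rises depends on the scaling: the median difference of all probe sets was 0.07 as reported, -0.0019 with quantile normalization and -0.10 with median centring. Counts were 42 without a filter, 57 without the trend and 66 with 32 added, and 65 (50 higher, 15 lower) with the replicate block, 47 of them shared with the 52. The 14 probe sets also called in dehydrated seedlings became 32 with array weights, 23 with 32 added, 2 under the stricter filter and 13 to 29 with 1 control array left out. The interaction called 0 of the 52 in each setting with a value except array weights (1) and the poly-A covariate (1), both times 263783_at, and 0 in each fit without 1 control array; the fit of control arrays alone gives no value for it. Uncalled differences near 0 changed sign. With array weights LTI30 was 0.197 and EXPA18 0.0916, and with median centring MT1C was -0.128. With the poly-A covariate AT5G40450 was -0.242, AT4G08310 -0.115, AT5G55100 -0.0256, EXPA18 0.205, FMA -0.0983, XTH32 0.187 and AT1G77750 0.0731. With 1 control array left out, LTI30 ran from -0.581 to 0.0343, EXPA18 from -0.278 to 0.223, MT1C from -0.139 to 0.253 and NAC014 from -0.211 to 0.0827. The cause of these moves was not tested.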

Other observations

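Some further genes of the control comparison missed the call but had no overlap between the lines. That pattern was common, at 8.85% of tested probe sets upward and 6.13% downward, so nothing is read from it. PUB24, a U-box ubiquitin ligase gene that restrains immune responses, read 7.09, 7.19 and 7.22 in 46T and 6.51, 6.30 and 6.32 in WT (0.79 ± 0.19; limma adjusted p = 0.11). CYP71B23, a cytochrome P450 gene, differed by 1.45 ± 0.36 (limma adjusted p = 0.12), with WT control replicate 2 at 9.15 just under the lowest 46T array at 9.26, and UGT84A3 differed by -0.84 ± 0.18 (limma adjusted p = 0.067); both were picked as the smallest p of their family. AT2G43590, which lies close to CHI, differed by -1.12 ± 0.25 at 8.14 to 8.86 in 46T against 9.22 to 9.90 in WT, opposite to CHI, and was not called (limma adjusted p = 0.081). AT1G23850, next to AT1G23840, was higher by 0.81 ± 0.19 (limma adjusted p = 0.086). The defensin-like genes LCR68 and LCR69 differed by -0.74 ± 0.19 and -0.70 ± 0.18, also without a call.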
